A study of Homo sapiens with 12 samples.

Results

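Lung epithelial identity was examined through 10 genes in EGFR-mutant lung cancer cells exposed to EGFR inhibitors. They are 5 transcription factor genes of lung and foregut lineages (NKX2-1, FOXA1, FOXA2, SOX2 and GATA6), 4 surfactant protein genes (SFTPA1, SFTPB, SFTPC and SFTPD) and NAPSA, the gene of the aspartic protease napsin A. The genes were chosen by symbol, and all 10 were found among the 60591 genes of the count table. FOXA1, GATA6, SFTPD and NAPSA had enough reads to be tested, and the other 6 fell below the expression filter. RNA was sequenced from PC9 and H1650, established human non-small cell lung cancer lines that carry the same in-frame deletion in EGFR according to the study, although the sample labels give their genotype as Wild-type. Cells of each line were collected when the drugs were added (T0, 0.1% DMSO) or after 36 h in 10 μM erlotinib, a reversible EGFR inhibitor, or 0.1 μM osimertinib, an irreversible one. There were 2 libraries in each of the 6 groups, 12 in all. Each line stands for 1 tumour, and a treated library had been in culture 36 h longer than a T0 library. Vehicle-treated cells of the later time were not analysed here, and every change given below therefore includes change with time in culture.

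NKX2-1 is the homeobox factor that specifies lung and thyroid, and it activates surfactant genes in alveolar type 2 cells together with the forkhead factors FOXA1 and FOXA2 and with GATA6. SOX2 marks the proximal airway lineage and squamous tumours. Alveolar type 2 cells make surfactant, in which SFTPB and SFTPC lower surface tension while SFTPA1 and SFTPD are collectins that bind microbes, and napsin A processes the precursor of SFTPB. Pathologists stain for NKX2-1 and napsin A to recognise lung adenocarcinoma.

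The libraries held between 17961765 and 26346187 reads assigned to genes, and 3 reads, the limit that a count of 0 allows, came to between 0.116 and 0.168 normalized CPM (CPM after TMM scaling of the library sizes). This limit and the intervals below cover counting error only, since the reads carry no molecular identifiers. The epithelial genes EPCAM, CDH1, KRT7, KRT8 and KRT18 summed to between 5355 and 10628 normalized CPM in a library. Single genes moved both ways. EPCAM fell in PC9 (log2 changes -0.96 with erlotinib and -0.89 with osimertinib) and rose in H1650 (0.23 and 0.59). KRT7 rose in PC9 (0.72 and 0.83) and fell in H1650 (-1.01 and -1.03). KRT18 fell in PC9 with each drug and CDH1 rose there. With erlotinib KRT8 fell in both lines and KRT18 in H1650. With osimertinib KRT8, KRT18 and CDH1 rose in H1650. Markers of other cell types were low. PTPRC, CD68, LYZ and CD3E of immune cells summed to at most 0.839 normalized CPM, and PECAM1, CDH5 and VWF of endothelium to between 0.193 and 5.55. In PC9 CDH5 and VWF were higher and PECAM1 was lower after either drug, and in H1650 CDH5 was higher after either drug and PECAM1 after osimertinib. COL1A1, COL1A2, DCN and LUM of fibroblasts summed to between 9.96 and 44.9 normalized CPM, and COL1A1 alone of them passed the filter. COL1A1 was higher in PC9 with osimertinib, at 40.7 normalized CPM against 19.7 at T0 (log2 change 1.05, adjusted p = 1.9e-08), and was not called in the other drug comparisons with T0. The part of these markers in the results below was not tested.

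Promoters are shown for 3 of the genes, because GATA6 and SFTPD moved with the drugs and SFTPA1, a neighbour of SFTPD on chromosome 10, stayed almost silent. The sequences are those of RefSeq on GRCh38.p14, which had an entry for 8 of the 10 genes. Each run ends at the base before the annotated start, at most 250 bases long, and the part shown for GATA6 stops where its first exon begins in GENCODE 29. For SFTPD the start is that of RefSeq, and its window lies inside the longer GENCODE 29 span of the gene, chr10:79937740-79982614. Capitals mark an AP-1 site (TGAGTCA) in SFTPD, chr10:79949106-79949355 on the minus strand, and the forkhead core TGTTTAC, read here as its reverse complement, in SFTPA1, chr10:79610689-79610938 on the plus strand. The GATA6 stretch is chr18:22169339-22169442 on the plus strand.
SFTPD: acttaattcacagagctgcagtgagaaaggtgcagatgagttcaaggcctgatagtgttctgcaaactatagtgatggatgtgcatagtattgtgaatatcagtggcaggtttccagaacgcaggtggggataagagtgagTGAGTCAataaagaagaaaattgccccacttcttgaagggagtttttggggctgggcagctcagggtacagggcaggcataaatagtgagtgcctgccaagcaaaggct
SFTPA1: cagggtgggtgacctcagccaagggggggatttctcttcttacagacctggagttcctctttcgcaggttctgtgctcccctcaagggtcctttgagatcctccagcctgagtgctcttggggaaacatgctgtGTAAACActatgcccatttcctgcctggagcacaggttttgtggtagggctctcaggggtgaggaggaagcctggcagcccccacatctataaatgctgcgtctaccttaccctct
GATA6: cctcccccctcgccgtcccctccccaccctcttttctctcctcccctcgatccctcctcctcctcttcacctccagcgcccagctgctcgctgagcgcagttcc
Searched on both strands, TGAGTCA was present in 4.2% of 35116 such windows of 250 bases and TGTTTAC in 2.98%. Among windows not printed, that of SFTPB at chr2:85668742-85668991 also held TGAGTCA. That of NKX2-1 at chr14:36519557-36519806 also held TGTTTAC. Neither the NKX2-1 core CAAGTG (9.5% of windows) nor the GATA core AGATAA (9.17%) was in the SFTPD, SFTPA1 or NAPSA windows, which says only that these letters are missing there. No motif overlapped another in the printed windows, since each held at most 1 match. The GATA6 stretch is 68.3% G and C, against 46.8% for SFTPD and 55.2% for SFTPA1.

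Most of the lineage factors had little RNA in these cells. NKX2-1 (ENSG00000136352, chr14:36516392-36521149, minus strand, GENCODE 29 on GRCh38) had 4 reads over the 12 libraries. PC9 libraries held 0 and 0 of these reads at T0, 0 and 1 after erlotinib and 0 and 1 after osimertinib, and H1650 libraries held 2 and 0 at T0 and 0 in all 4 treated libraries. Summed over a line this is 0.0157 normalized CPM in PC9 (exact Poisson 95% interval 0.00190 to 0.0566) and 0.0152 in H1650 (0.00184 to 0.0548). The main activator of surfactant genes was thus at the counting limit in both lines and under both drugs, and a change was not detectable at this depth. Its antisense neighbour NKX2-1-AS1, which shares 402 exon bases with it, had at most 2 reads in a library, and SFTA3, the surfactant-associated gene beside it, had 0 reads in every library.

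FOXA1, the pioneer factor that opens chromatin for other factors in endodermal tissues, lies 1069 kb from NKX2-1 on the same chromosome (ENSG00000129514, chr14:37589984-37596059, minus strand) and was well expressed in PC9. Its normalized CPM in PC9 was 43.3 and 40.9 at T0, 42.6 and 40.1 after erlotinib, and 48.4 and 47.7 after osimertinib. In H1650 the values were 2.80 and 2.47 at T0, 3.72 and 3.54 after erlotinib, and 4.39 and 3.70 after osimertinib. Every PC9 library lay above every H1650 library, and in H1650 all 4 treated libraries lay above both T0 libraries. At T0 the level in H1650 was 16-fold lower than in PC9 (log2 difference -4.00, SE 0.13, adjusted p = 2.2e-20, edgeR quasi-likelihood test with Benjamini-Hochberg adjustment over 19108 genes). Of the 4 tested genes, 3 differed between the untreated lines, where 69.6% of all tested genes did.

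Over the 4 protein-coding genes between NKX2-1 and FOXA1, the ranges of the lines overlapped. NKX2-8, a homeobox gene of the same family as NKX2-1, lay between 0.252 and 1.84 normalized CPM in PC9 and between 0.233 and 0.885 in H1650. PAX9, a paired-box factor of the pharyngeal pouches, lay between 4.58 and 7.88 in PC9 and between 3.17 and 5.32 in H1650. SLC25A21, a mitochondrial carrier, lay between 0.494 and 2.03 in PC9 and between 0.464 and 1.07 in H1650. MIPOL1, the nearest of the 4 to FOXA1, lay between 5.34 and 7.50 in PC9 and between 6.10 and 10.7 in H1650.

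FOXA2, the paralogue of FOXA1 (ENSG00000125798, chr20:22581005-22585455, minus strand), had 4 reads in the 6 PC9 libraries and 47 in the 6 H1650 libraries. PC9 libraries held 1 and 0 reads at T0, 3 and 0 after erlotinib and 0 and 0 after osimertinib. H1650 libraries held 10 and 8 at T0, 2 and 9 after erlotinib and 15 and 3 after osimertinib. The line sums were 0.0313 normalized CPM (0.00854 to 0.0803) in PC9 and 0.357 (0.262 to 0.474) in H1650, intervals that do not meet. They pool T0 and treated libraries and leave out the spread between libraries. By these sums the paralogues were ordered oppositely in the lines, though the sums of FOXA2 were not tested over libraries. Reads of FOXA2 in treated H1650 cells spread on both sides of T0. LINC00261, the long noncoding gene near FOXA2, had 0 reads in every library.

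SOX2 (ENSG00000181449, chr3:181711924-181714436, plus strand) had 23 reads in all. PC9 held 0 and 0 at T0, 4 and 2 after erlotinib and 1 and 0 after osimertinib. H1650 held 4 and 6 at T0, 0 and 1 after erlotinib and 4 and 1 after osimertinib. The sums were 0.0549 normalized CPM (0.0221 to 0.113) in PC9 and 0.121 (0.0694 to 0.197) in H1650, intervals that overlap. These sums pool T0 and treated libraries, although at T0 alone only H1650 had reads. SOX2 lay below the filter, so that T0 difference was not tested with the others. SOX2-OT, which spans SOX2, had at most 5 reads in a library.

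GATA6, the zinc-finger factor of endoderm and distal lung, rose in PC9 with both drugs. The gene lies at chr18:22169443-22202528 on the plus strand (ENSG00000141448). Its normalized CPM in PC9 was 16.9 and 19.6 at T0, 55.0 and 51.7 after erlotinib, and 62.3 and 55.3 after osimertinib. In H1650 it was 4.06 and 2.47 at T0, 2.89 and 2.56 after erlotinib, and 2.15 and 1.92 after osimertinib. All treated PC9 libraries stood above the T0 libraries by a wide gap, the erlotinib libraries of H1650 fell between its T0 libraries, and the osimertinib libraries of H1650 lay below both. In PC9 cells GATA6 rose 2.92-fold with erlotinib (log2 change 1.54, SE 0.12, adjusted p = 8.1e-12) and 3.22-fold with osimertinib (log2 change 1.69, SE 0.12, adjusted p = 1.3e-12).

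In H1650 the change of GATA6 with erlotinib was -0.24 on the log2 scale (SE 0.21, 95% interval -0.68 to 0.20, adjusted p = 0.42). With osimertinib it fell by 0.66 (SE 0.23, adjusted p = 0.0225), a call that rests on 1 T0 library: without T0 library 1 the change was -0.28 with adjusted p = 0.464, and without osimertinib library 2 it was -0.58 with adjusted p = 0.135. Without T0 library 2 it was -1.0, so the T0 libraries set its size. Fitting H1650 alone gave -0.67 with adjusted p = 0.0717. Responses of the lines differed for both drugs, by -1.78 (change in H1650 minus change in PC9, SE 0.25, adjusted p = 9.2e-07) with erlotinib and by -2.35 (SE 0.25, adjusted p = 1.3e-08) with osimertinib. GATA6 was the 1 gene of the 4 called in each of these comparisons, where 40.8% and 41.9% of all tested genes were called. Before any drug GATA6 was 5.69-fold lower in H1650 than in PC9 (log2 difference -2.51, SE 0.16, adjusted p = 8.0e-14).

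**Figure D1:**
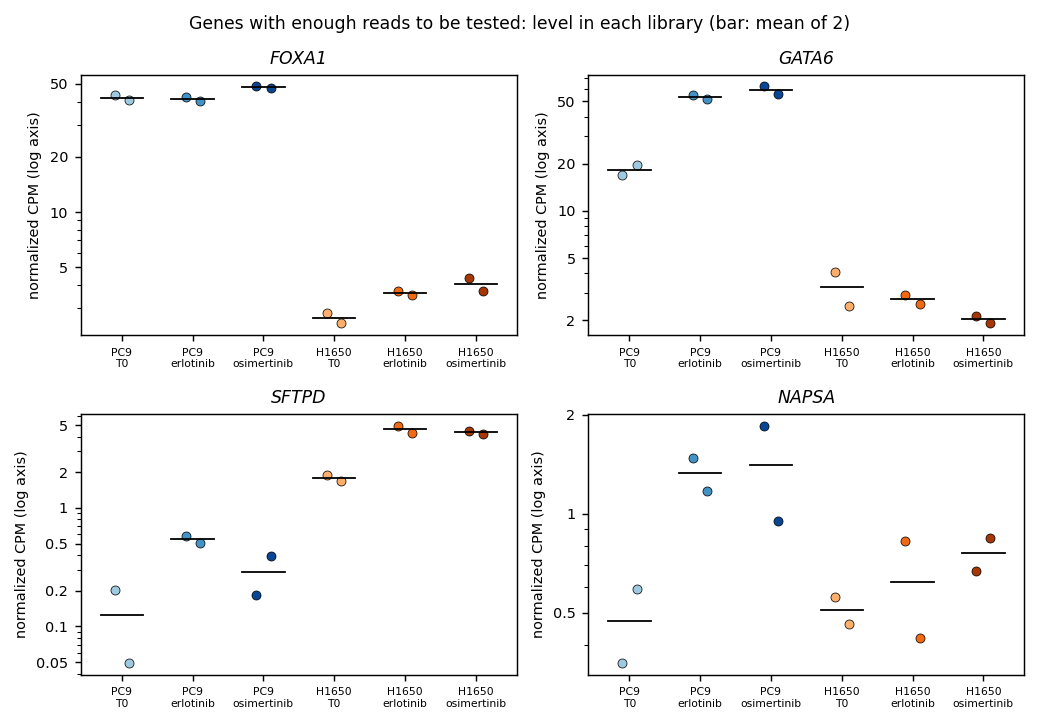
Normalized CPM (log axis) of FOXA1, GATA6, SFTPD and NAPSA in each of the 12 libraries, by line and treatment; points are libraries and bars are means of 2. GATA6 rose from between 16.9 and 19.6 to between 51.7 and 62.3 in PC9, while in H1650 all libraries lay between 1.92 and 4.06.

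GATA6-AS1 is transcribed from the opposite strand and shares 240 exon bases with GATA6. Its normalized CPM was 0.807 and 1.23 in PC9 at T0, 6.09 and 7.26 after erlotinib, and 6.47 and 5.21 after osimertinib. In H1650 it was 0.187 and 0.347 at T0, 0.361 and 0.0931 after erlotinib, and 0.477 and 0.356 after osimertinib. The antisense gene thus rose with GATA6 in PC9, by 2.70 on the log2 scale with erlotinib (SE 0.32, adjusted p = 2.0e-08) and by 2.51 with osimertinib (SE 0.32, adjusted p = 9.6e-08), and was low in all H1650 libraries. Summed reads went from 41 at T0 to 322 and 233, a ratio of 6.57 (exact 95% interval 4.73 to 9.33) with erlotinib and of 5.77 (4.13 to 8.26) with osimertinib after scaling to depth. Whether the counting used the strand is not given in the sources used here, so in the shared bases reads of GATA6 and GATA6-AS1 cannot be told apart. GATA6-AS1 held at most 186 reads in a library and GATA6 up to 1347.

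**Figure D2:**
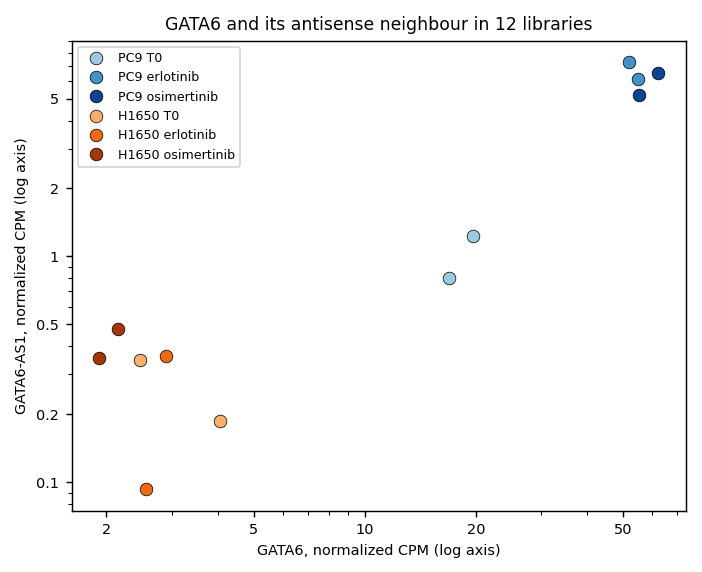
GATA6 (horizontal, normalized CPM, log axis) against GATA6-AS1 (vertical, normalized CPM, log axis) in the 12 libraries, coloured by line and treatment. The 4 treated PC9 libraries form the upper right group, the 2 PC9 T0 libraries lie between, and H1650 libraries stay below 0.5 normalized CPM of GATA6-AS1.

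Of the surfactant genes, SFTPA1, SFTPB and SFTPC were at the counting limit. SFTPA1 (ENSG00000122852, chr10:79610939-79615455, plus strand), the gene of surfactant protein A1, had 0 reads in all 6 PC9 libraries, which allows up to 0.0289 normalized CPM over the line (exact Poisson 95% interval). In H1650 it had 7 and 2 reads at T0, and 1 of the 2 libraries of each drug held 1 read while the other held 0. SFTPA1 shares 9.20% of its stretches of 100 bases with its copy SFTPA2, so reads can be split or lost between them. SFTPA2 had 0 reads in the 6 PC9 libraries and between 3 and 5 in each H1650 library.

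SFTPB (ENSG00000168878, chr2:85657314-85668741, minus strand), which encodes the surfactant protein that is needed for breathing at birth, had 2 reads in PC9, both in 1 T0 library. H1650 held 1 and 4 reads at T0, 1 and 0 after erlotinib and 0 and 0 after osimertinib. SFTPC, the gene on chromosome 8 for the protein most restricted to type 2 cells (ENSG00000168484), had 2 reads in 1 erlotinib library and 2 in 1 osimertinib library of PC9. It had 0 in all 6 H1650 libraries, which allows up to 0.0280 normalized CPM over that line (exact Poisson 95% interval). LGI3 shares 89 exon bases with SFTPC on the opposite strand and held up to 24 reads in a library. These surfactant genes lay below the filter, so their changes with the drugs were not tested with the others. In H1650 the summed reads of SFTPA1 went from 9 at T0, 7 of them in 1 library, to 1 with each drug.

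**Figure D3:**
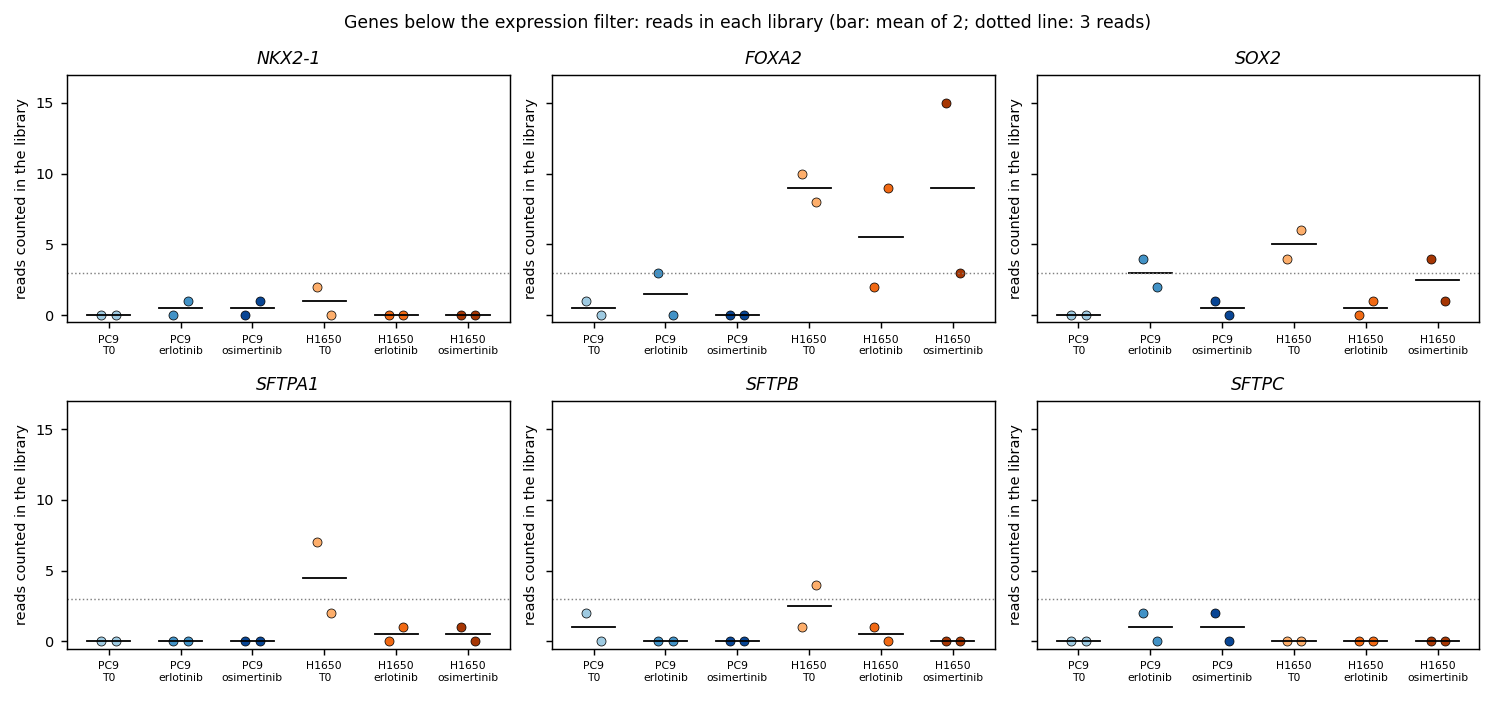
Reads counted in each library for NKX2-1, FOXA2, SOX2, SFTPA1, SFTPB and SFTPC, the 6 genes below the expression filter, on a common linear axis; points are libraries, bars are means of 2 and the dotted line is at 3 reads. The highest count was 15 reads of FOXA2 in an osimertinib library of H1650.

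SFTPD, the gene of the collectin surfactant protein D, was the 1 surfactant gene that passed the filter, and it rose in H1650. It lies at chr10:79937740-79982614 on the minus strand (ENSG00000133661), 322 kb from SFTPA1. In H1650 its normalized CPM was 1.91 and 1.70 at T0, 4.95 and 4.28 after erlotinib, and 4.49 and 4.23 after osimertinib. PC9 libraries had 0.202 and 0.0494 at T0, 0.582 and 0.508 after erlotinib, and 0.185 and 0.392 after osimertinib. Every H1650 library lay above every PC9 library, and the treated and T0 libraries of H1650 did not overlap. The change in H1650 was 2.56-fold with erlotinib (log2 change 1.35, SE 0.29, adjusted p = 0.00049) and 2.42-fold with osimertinib (log2 change 1.27, SE 0.29, adjusted p = 0.00096). Leaving out any 1 library kept both of these calls.

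In PC9 the reads of SFTPD were few, with 5 in the T0 libraries together, 26 after erlotinib and 11 after osimertinib. The ratio of reads to T0 after scaling was 4.35 with erlotinib (exact 95% interval 1.64 to 14.5) and 2.23 with osimertinib (0.716 to 8.20). SFTPD rose with erlotinib in the fit (log2 change 2.07, SE 0.65, adjusted p = 0.0068), which became 1.40 with adjusted p = 0.109 without T0 library 2 and 3.31 without T0 library 1, and with osimertinib the log2 change was 1.13 (SE 0.76, adjusted p = 0.205). The drug-by-line difference of SFTPD was -0.72 with erlotinib (95% interval -2.20 to 0.77), bounded only loosely, and 0.14 with osimertinib. Neither was called. For the second no interval is given, since its SE, derived from the test statistic, is not reliable so close to 0. At T0 H1650 had the higher level, with a log2 difference of 3.79 (SE 0.52, adjusted p = 3.3e-07), and the T0 reads of PC9 set that value.

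NAPSA (ENSG00000131400, chr19:50358477-50365830, minus strand) was low in both lines and rose in PC9. Its normalized CPM in PC9 was 0.353 and 0.592 at T0, 1.48 and 1.17 after erlotinib, and 1.85 and 0.953 after osimertinib. H1650 had 0.560 and 0.463 at T0, 0.826 and 0.419 after erlotinib, and 0.668 and 0.846 after osimertinib. Treated PC9 libraries lay above its T0 libraries, whereas in H1650 an erlotinib library lay below T0. NAPSA rose 2.77-fold with erlotinib (log2 change 1.47, SE 0.51, adjusted p = 0.0137) and 2.98-fold with osimertinib (log2 change 1.57, SE 0.51, adjusted p = 0.0091) in PC9. Both calls rest on single libraries: without T0 library 1 the log2 changes were 1.14 (adjusted p = 0.123) and 1.25 (adjusted p = 0.093), without erlotinib library 1 the first was 1.29 (adjusted p = 0.0749), and without osimertinib library 1 the second was 1.0 (adjusted p = 0.209). DESeq2 gave 1.46 with adjusted p = 0.0643 for erlotinib.

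The log2 change of NAPSA in H1650 was 0.27 with erlotinib (SE 0.55, adjusted p = 0.748) and 0.57 with osimertinib (SE 0.53, adjusted p = 0.437). Its drug-by-line differences were -1.19 (95% interval -2.74 to 0.35) and -1.0 (-2.53 to 0.53) and were not called, so a difference between the lines in the response of NAPSA was not shown. NAPSA lies inside the span of NR1H2 on the opposite strand without sharing exon bases with it, and NR1H2 held between 1876 and 3050 reads in a library against at most 40 of NAPSA. NAPSB, a near copy that shares 1.63% of the stretches of NAPSA, held between 5 and 19 reads and was not called with either drug in either line.

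FOXA1 in H1650 rose slightly with osimertinib, by 1.54-fold (log2 change 0.62, SE 0.17, adjusted p = 0.0053), which became 0.5 (adjusted p = 0.0909) without osimertinib library 1 and 0.53 (adjusted p = 0.0788) without T0 library 2. Its change with erlotinib was 0.47 (SE 0.18, adjusted p = 0.0405), just inside the threshold. This call was lost with DESeq2 (adjusted p = 0.0956), with RLE scaling (0.0532), without a filter (0.132), in a fit of H1650 alone (0.127) and in 8 of the 12 fits that left out 1 library (adjusted p between 0.0506 and 0.25 in those 8), among them the fits without either T0 or either erlotinib library of H1650. FOXA1 in PC9 had log2 changes of -0.03 with erlotinib (95% interval -0.23 to 0.17) and 0.19 with osimertinib (-0.01 to 0.39), neither of which was called. The drug-by-line differences of FOXA1 were 0.49 (adjusted p = 0.0526) and 0.43 (adjusted p = 0.0839). The first was near the threshold and passed it without osimertinib library 1 or 2 of H1650 (adjusted p = 0.0496 and 0.0492).

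**Figure D4:**
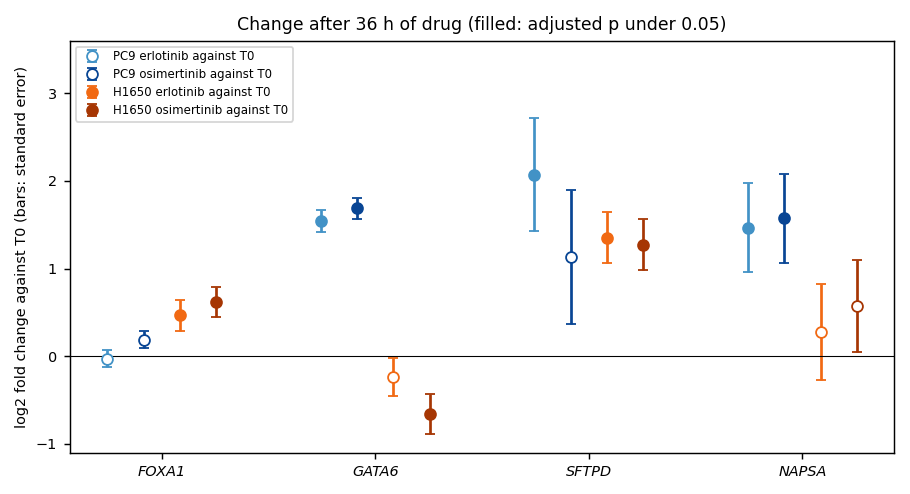
Log2 fold change against T0 (vertical axis, bars are standard errors) of FOXA1, GATA6, SFTPD and NAPSA for each drug in each line; filled points had an adjusted p under 0.05. GATA6 is at 1.54 and 1.69 in PC9 and below 0 in H1650, SFTPD is above 1 in all 4 comparisons, and open points were not called.

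Counted over the 4 tested genes, 3 rose in PC9 with erlotinib, where 61.8% of all tested genes were called in either direction and 32.7% were called higher. With osimertinib in PC9 2 rose, against 61.4% called and 32.7% called higher. In H1650 2 rose with erlotinib, against 36.5% called and 18% called higher. With osimertinib in H1650 2 rose and 1 fell, against 35.7% called, 17.8% higher and 17.9% lower. The median log2 change of the 4 genes was 1.51, 1.35, 0.37 and 0.60 in these comparisons, beside 0.07, 0.06, 0.01 and 0 over all tested genes. The drug comparisons of a line share their T0 libraries, and 4 genes that passed a filter on reads do not stand for all 10. In bulk RNA, fewer cells that express a gene and less RNA per cell cannot be told apart.

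Osimertinib and erlotinib were given at different doses, so their values stand side by side only. None of the 4 genes was called between the drugs by edgeR in either line, where 16.6% of all tested genes were called in PC9 and 8.75% in H1650. These shares turn on single libraries, since the 1672 genes called in H1650 became 782 without its osimertinib library 1 and 1093 and 1045 without its erlotinib libraries 1 and 2, and the 3163 called in PC9 became 2108 without its osimertinib library 2. At an unadjusted p under 0.05 the count was 1, FOXA1 in PC9, at 0.22 on the log2 scale (95% interval 0.02 to 0.42, adjusted p = 0.13), and DESeq2 called 0 in either line. For GATA6 the log2 difference, osimertinib minus erlotinib, was 0.14 (-0.09 to 0.37) in PC9 and -0.42 (-0.91 to 0.07) in H1650. SFTPD had -0.94 (-2.06 to 0.18) in PC9 and -0.08 (-0.63 to 0.47) in H1650, and NAPSA had 0.10 (-0.79 to 1.0) and 0.30 (-0.77 to 1.37).

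Levels of different genes were compared per kilobase of exon. In untreated PC9 cells FOXA1 stood at 9.53 ± 0.37 normalized CPM per kb (SD, n = 2) and GATA6 at 4.57 ± 0.47, while NAPSA stood at 0.132 ± 0.047 and SFTPD at 0.0949 ± 0.0814. After either drug GATA6 stood above FOXA1 in PC9, at 13.3 ± 0.59 against 9.36 ± 0.41 per kb with erlotinib and 14.7 ± 1.2 against 10.9 ± 0.11 with osimertinib. In untreated H1650 cells SFTPD led with 1.36 ± 0.11 per kb, ahead of GATA6 at 0.817 ± 0.28, FOXA1 at 0.597 ± 0.053 and NAPSA at 0.143 ± 0.019, and with erlotinib SFTPD reached 3.49 ± 0.36. Among the tested genes GATA6 in PC9 moved from the 61.0th percentile of normalized CPM per kb at T0 to the 82.3rd with erlotinib and the 83.8th with osimertinib, and SFTPD in H1650 from the 41.0th to the 55.3rd and the 54.5th.

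Ordered by group, FOXA1 was highest in PC9 with osimertinib, then PC9 at T0 and PC9 with erlotinib, which neighbours did not differ beyond their spread, then H1650 with osimertinib, with erlotinib and at T0. For GATA6 the order was PC9 with osimertinib and with erlotinib (not told apart), PC9 at T0, and then H1650 at T0, with erlotinib and with osimertinib, whose neighbours were not told apart. SFTPD ran from H1650 with erlotinib and with osimertinib (not told apart) through H1650 at T0 to PC9 with erlotinib, with osimertinib and at T0. Neither step between neighbours among these 3 PC9 groups was told apart. Only neighbours were compared in these orders, and groups further apart can differ. SFTPD was higher in PC9 with erlotinib than at T0 (log2 change 2.07, edgeR adjusted p = 0.0068). None of the 5 neighbouring steps of NAPSA passed the test, from PC9 with osimertinib at the top to PC9 at T0 at the bottom.

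Genes whose pattern over the 12 libraries was most like a gene above were taken by Pearson correlation of log2 normalized CPM plus 0.5, among 14995 genes, and the libraries of a group are not independent points. For FOXA1 these were TMEM125, MAL and CYP4F11 (r = 0.997 for each), which all averaged over 30 normalized CPM in untreated PC9 cells and under 0.3 in untreated H1650 cells. For GATA6 they were ALDH1A3 (0.996), LPAR6 (0.995) and the mucin MUC4 (0.994). ALDH1A3, a retinaldehyde dehydrogenase, went from 363 ± 10.4 (SD, n = 2) to 818 ± 22.8 and 881 ± 26 normalized CPM with erlotinib and osimertinib in PC9, and from 110.3 ± 0.144 to 90.1 ± 6.5 and 75.4 ± 1.05 in H1650. For SFTPD they were SNED1 (0.996), ZNRF2 (0.993) and EML2 (0.991). A processed pseudogene named ZNRF2P3 lies within the span of SFTPD and held at most 4 reads.

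The other genes of alveolar type 2 cells moved in both directions. Of 17 listed genes 12 were tested. Over all tested genes, 61.8% and 61.4% were called in PC9 with erlotinib and osimertinib and 36.5% and 35.7% in H1650, shares against which each list below is to be read. In PC9 6 rose and 4 fell with each drug, and in H1650 6 rose and 1 fell with erlotinib and 6 rose with osimertinib while the other 6 were not called, with median log2 changes of 0.62, 0.44, 0.39 and 0.69. SLC34A2, the phosphate transporter of type 2 cells, had at most 8 reads in a library, and PGC and SFTA2 had at most 1 and 3. CTSH, a cathepsin that processes surfactant protein precursors, rose in all 4 comparisons, from 35.0 normalized CPM to 165.3 and 258 in PC9 and from 82.0 to 138.2 and 158.2 in H1650.

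LAMP3, a lamellar body membrane protein, rose in H1650 from 12 to 33.6 and 40.4 normalized CPM (log2 changes 1.5 and 1.76, SE 0.13 each, adjusted p = 7.9e-10 and 3.4e-11). In PC9 LAMP3 rose with erlotinib from 5.71 to 9.13 and fell with osimertinib to 3.19 (log2 changes 0.68 and -0.83, adjusted p = 0.00071 and 0.00062). LPCAT1, which remodels surfactant phospholipid, stood at 267 normalized CPM in untreated PC9 and 277 in untreated H1650 cells and fell with erlotinib to 220.0 in PC9 and 162 in H1650. The lipid synthesis genes FASN and SCD are broadly expressed. FASN fell in PC9 from 666 to 449 and 540.4 and rose in H1650 from 456 to 832 with osimertinib, and SCD rose in PC9 from 109 to 246 and 212 and in H1650 with osimertinib from 742 to 1519.

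ETV5, an ETS factor that maintains type 2 cells and follows ERK activity, fell from 62.8 normalized CPM to 0.939 and 0.381 in PC9 (log2 changes -6.08 and -7.35, adjusted p = 5.8e-21 and 4.3e-21). In H1650 ETV5 rose with erlotinib from 5.89 to 19.4 (log2 change 1.71, adjusted p = 3.1e-10). The genes of type 1 cells, the flat cells of gas exchange, were read from a second list. Of 11 listed genes 8 were tested, of which 4 rose and 2 fell in PC9 with each drug and 2 rose and 3 fell in H1650 with each drug (61.8% and 61.4% of all tested genes called in PC9, 36.5% and 35.7% in H1650), with median log2 changes of 0.30, 0.52, -0.16 and -0.34. The caveolin genes CAV1 and CAV2 rose in PC9 and fell in H1650, CAV1 from 1335 to 1723 and 2479 and from 756 to 241 and 377 normalized CPM, and EMP2 went the opposite way. AGER rose in H1650 from 7.35 to 19.3 and 15.9 normalized CPM (log2 changes 1.39 and 1.11) and was not called in PC9. CLIC5 rose in PC9 from 1.40 to 5.69 and 7.28 (log2 changes 2.03 and 2.37) and was not called in H1650. HOPX went from 3 reads in the untreated PC9 libraries together to between 51 and 55 reads in each treated one and fell in H1650 with erlotinib from 0.353 to 0.0258 normalized CPM, and RTKN2 fell in PC9 from 45.3 to 16.6 and 37.8 and in H1650 with osimertinib from 13.5 to 9.96.

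**Figure D5:**
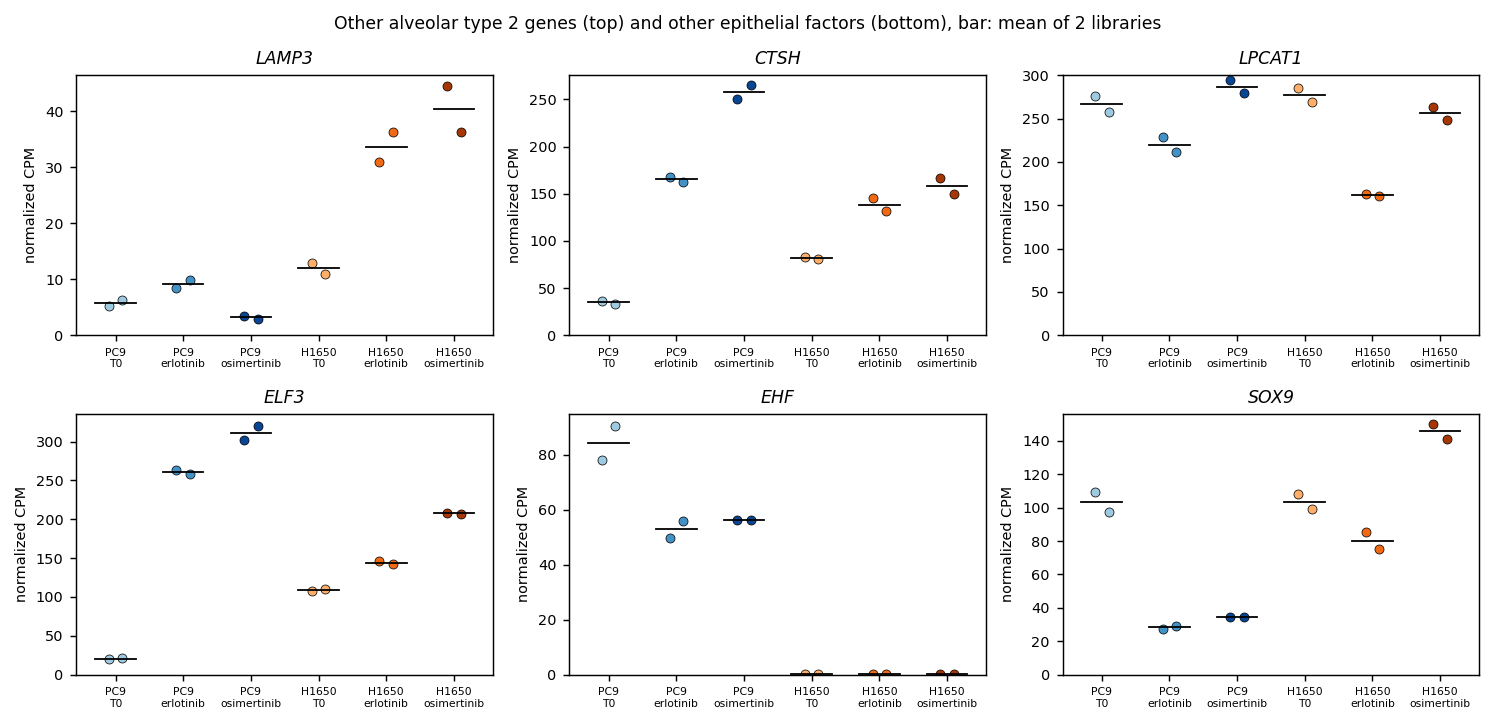
Normalized CPM (linear axes from 0) of the type 2 genes LAMP3, CTSH and LPCAT1 and of the epithelial factors ELF3, EHF and SOX9 in each of the 12 libraries; points are libraries and bars are means of 2. LAMP3 rises to between 30.9 and 44.4 in treated H1650 cells and ELF3 from about 20 to between 258 and 321 in PC9, and EHF is near 0 in H1650.

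Of 25 other lung and foregut transcription factors listed, 20 were tested, of which 9 rose and 6 fell in PC9 with each drug, and in H1650 4 rose and 4 fell with erlotinib and 5 rose and 3 fell with osimertinib, with median log2 changes of 0.23, 0.21, 0.26 and 0.13. Thus 15 of 20 were called in PC9 with each drug, against 61.8% and 61.4% of all tested genes, and 8 of 20 in H1650, against 36.5% and 35.7%. ELF3, an epithelial ETS factor, rose in PC9 from 20.4 to 260.5 and 312 normalized CPM (log2 changes 3.67 and 3.93, SE 0.08 each) and in H1650 from 108.8 to 144 and 208 (0.41 and 0.93, SE 0.07 each). Its relative EHF fell in PC9 from 84.2 to 52.8 and 56.2 and rose in H1650 from 1 read in each T0 library to between 4 and 8 reads in each treated one. SOX9, a factor of the distal lung tips, fell in PC9 from 103.5 to 28.3 and 34.4, and in H1650 fell with erlotinib from 103.5 to 80.3 and rose with osimertinib to 145.7.

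GRHL2 and KLF5, which maintain epithelial junctions and airway epithelium, rose in PC9, GRHL2 from 142.2 to 226 and 235 and KLF5 from 93.2 to 144 and 201 normalized CPM, and KLF5 rose in H1650 with osimertinib from 97.5 to 112. Opposite calls in the lines were made for NFIB, which fell in PC9 (log2 changes -0.58 and -0.69) and rose in H1650 (0.27 and 0.39), and for TEAD1, which rose in PC9 (0.30 and 0.42) and fell in H1650 (-0.39 and -0.62). With erlotinib FOXP1 rose in PC9 by 0.42 and fell in H1650 by 0.41 on the log2 scale, and PAX9 rose by 0.50 and fell by 0.69. With osimertinib FOXP1 rose in PC9 by 0.70, and PAX9 fell in H1650 by 0.56.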

How the data were processed

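PolyA RNA of 12 libraries was analysed. The authors processed reads with the DolphinNext pipeline and deposited featureCounts counts, whole reads per gene without normalization, with the exon length of each gene in bases. The submitters' processing notes name GRCh38 and DESeq2, and the aligner, annotation release and strandedness are not given in the sources used here. Counts were tested in R 4.3.3 with edgeR 4.0.16 (TMM scaling, expression filter by group, quasi-likelihood model with 6 groups as terms over all 12 libraries, 6 residual and 20.7 prior degrees of freedom), and 19108 genes were kept and 41483 left out. A gene was called at a Benjamini-Hochberg adjusted p below 0.05 over all of them. Replicates are as labelled, and where they are not separate cultures the p-values measure technical spread only. Reads in a library totalled 17961765 to 26346187, and 0 columns of other samples were present.

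The 10 genes and the companion lists were chosen with earlier results of these data known. Named companions are, per list, the 4 with the highest group mean of at least 1 normalized CPM and any called in opposite directions in the lines, with genes that overlap or copy one of the 10. SLC34A2, PGC and SFTA2 fall under that limit and were named after their reads were seen. ABCA3, MUC1, DMBT1, AGER and CLIC5 lie outside that rule and were also named after their values were seen. Positions and overlaps are from GENCODE 29 on GRCh38, and promoters from RefSeq on GRCh38.p14. Count intervals are exact Poisson or binomial at 95%. The alternatives were RLE scaling, DESeq2 1.42.0, no filter (at least 1 count), at least 1 CPM in 2 libraries, one fit per line, the replicate number as a block, and fits without 1 library each. On simulated counts for the PC9 erlotinib comparison with 200 of 17918 genes changed by 1 on the log2 scale, edgeR recovered 184 with 15 false calls and DESeq2 180 with 7 of 16512 genes. The changed genes, equally up and down, all lay above 1 normalized CPM at T0 in both lines. SFTPD in PC9 and NAPSA lay below that, so these rates do not cover them. Nor do they cover scaling where many genes change, since 61.8% were called in the real comparison. The genetic screen, viability and protein data were not analysed here.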

Additional observations from a re-analysis of the deposited data

Results flagged for a closer look

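Of the 4 genes tested, GATA6 was the 1 called in the test of the difference in response between the lines, where 40.8% of all tested genes were called with erlotinib and 41.9% with osimertinib. FOXA1 lay near the threshold with erlotinib (adjusted p = 0.0526) and passed it under some of the alternatives described with the processing. For GATA6 the log2 change in H1650 cells less that in PC9 cells was -1.78 with erlotinib (SE 0.25, edgeR adjusted p = 9.2e-07) and -2.35 with osimertinib (SE 0.25, adjusted p = 1.3e-08). In GATA6 all 4 treated PC9 libraries lay above both of its T0 libraries, and none of the 4 treated H1650 libraries lay above both of its own. Both differences of GATA6 kept their direction and call in every alternative that gave them. The comparisons share the T0 libraries of each line, so they are not independent of each other, and the cause of the difference was not tested.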

How the results depend on the processing

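With RLE scaling, DESeq2, no filter and one fit per line, 1 of the genes was called in H1650 with erlotinib in place of 2, since FOXA1 was lost. DESeq2 also lost the call of NAPSA in PC9 with erlotinib (adjusted p = 0.0643). One edgeR fit per line lost that of GATA6 in H1650 with osimertinib (adjusted p = 0.0717). With at least 1 CPM in 2 libraries, 2 in place of 1 had a called drug-by-line difference with erlotinib, FOXA1 being added at adjusted p = 0.0496. Fits without 1 library each tested more genes, because the smallest group then held 1 library, whose spread is assumed to be like that of the others. In them calls of the 4 genes were lost or gained, as given with each gene above, and their log2 changes moved. In PC9 NAPSA ran from 1.14 to 1.88 with erlotinib and from 1.0 to 1.99 with osimertinib, and SFTPD from 1.40 to 3.31 with erlotinib. In H1650 FOXA1 ran from 0.37 to 0.55 with erlotinib and from 0.50 to 0.74 with osimertinib. GATA6 in H1650 ran from -1.0 to -0.28 with osimertinib. The erlotinib drug-by-line difference of FOXA1 ran from 0.40 to 0.60. All genes called between the drugs ran from 2108 (without osimertinib library 2) to 3234 in PC9, against 3163, and in H1650 from 782 (without osimertinib library 1) to 1818, against 1672, with 1093 and 1045 without erlotinib libraries 1 and 2.

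None of the log2 values that turned sign had been called. Without 1 library, FOXA1 in PC9 with erlotinib ran from -0.073 to 0.015, and in H1650 with erlotinib GATA6 ran from -0.58 to 0.14 and NAPSA from -0.27 to 0.69. The osimertinib drug-by-line difference of SFTPD ran from -1.1 to 0.81. Osimertinib minus erlotinib ran from -0.47 to 0.48 for NAPSA in PC9, from -0.11 to 0.85 for NAPSA in H1650 and from -0.18 to 0.023 for SFTPD in H1650. The T0 difference between the lines ran from -0.22 to 0.52 for NAPSA.

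The replicate number as a block changed 1 call among the 4 genes, FOXA1 in the erlotinib drug-by-line difference (0.49, adjusted p = 0.0487), which made 2 called there, and raised the number of all genes called between the drugs in H1650 to 2670. Deviations of same-numbered libraries correlated between 0.00206 and 0.448 over 15 pairs of groups, and 12 of the 15 were over 0.1. The labels do not say that a number marks a shared culture or day, so the block was kept as an alternative only. Depth limits the 6 genes under the filter, SFTPD in PC9 and NAPSA, whose values rest on at most 40 reads in a library.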

Other observations

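Genes of lineages other than the alveolus were read from further lists, beside 61.8% and 61.4% of all tested genes called in PC9 with erlotinib and osimertinib and 36.5% and 35.7% in H1650. Of 7 basal and squamous genes, all tested, 1 rose and 3 fell in PC9 with erlotinib, 2 rose and 4 fell with osimertinib, 2 rose and 2 fell in H1650 with erlotinib and 3 rose and 2 fell with osimertinib, with median log2 changes of -0.25, -0.89, -0.43 and 0.60. KRT6A, a keratin of wounded and squamous epithelium, fell in all 4 comparisons, from 401 to 19.2 and 24.6 normalized CPM in PC9 and from 22.6 to 1.76 and 2.99 in H1650, while KRT15 rose in all 4, from 12.8 to 26.8 and 42.8 and from 24.7 to 40.1 and 74.3. TP63, the basal cell factor, fell in PC9 from 3.99 to 0.26 and 0.228 and rose in H1650 from 0.496 to 1.15 and 1.48. KRT5 fell in PC9 from 102.3 to 38.3 and 55.2 and rose in H1650 with osimertinib from 5.19 to 7.43. DSG3, a desmosomal cadherin, had 0 reads in all PC9 libraries and averaged 108.5 in untreated H1650 cells, falling to 68.7 and 83.7.

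Airway, gut and neuroendocrine genes were mostly near the counting limit. Of 10 airway secretory and ciliated genes 4 were tested and 8 stayed below 1 normalized CPM in every group. In PC9 2 rose and 2 fell with erlotinib and 2 rose and 1 fell with osimertinib, where 61.8% and 61.4% of all tested genes were called, and in H1650 the whole list summed to at most 0.525 normalized CPM in a library. FOXJ1, the master factor of cilia, fell in PC9 with erlotinib from 1.95 to 0.212, and TPPP3, a tubulin-binding protein of ciliated cells, rose from 0.973 to 2.70 and 12.4. Of 11 gut and gastric genes 4 were tested, and in PC9 2 fell with each drug, beside the same shares of all tested genes. These were CTSE, from 4.41 to 0 and 0.0694, and TFF1, from 1.44 to 0 and 0.028, both gastric genes. In H1650 the gut list summed to between 1.48 and 2.75 normalized CPM. LGALS4 was not called in the drug comparisons. Of 6 neuroendocrine and tuft genes 3 were tested, and POU2F3, the tuft cell factor, rose in PC9 from 0.323 to 3.18 and 3.95 and in H1650 with osimertinib from 0.642 to 1.56. CHGA and SYP were not called with either drug in either line.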
